A study of Mus musculus with 12 samples.

Results

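Jdp2 and 9 further genes of the AP-1 family were followed through the 3 ORFtag screens in mouse embryonic stem (mES) cells. The 10 genes were Jdp2, Jun, Junb, Jund, Fos, Fosb, Fosl1, Fosl2, Atf3 and Batf, taken by name from the screen tables, which list 20409 genes. Of these 10 members, 7 had a row in the tables. Jun, Junb and Jund had none, because each is a gene of 1 exon and a cassette that works through a splice acceptor cannot be assigned to it.

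AP-1 is a family of dimeric transcription factors. Each subunit carries a basic region that contacts DNA and, after it, a leucine zipper through which it pairs with another subunit. Jun proteins pair with each other or with Fos proteins, while Fos proteins need a partner. Jdp2 (Jun dimerization protein 2) and the related Atf3 and Batf pair with Jun proteins as well, and Jdp2 is known as a repressor of AP-1 targets that can recruit histone deacetylases.

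In ORFtag a retrovirus inserts a promoter, a tag and a splice donor at many places in the genome, and the transcript that starts there splices into the next exon downstream, so that the cell makes the rest of that gene as a fusion to the tag. All cells were mES cells labelled wild-type apart from a reporter. Per the study's methods, the PTGR line also carried a transgene for an inducible Cre recombinase. The methods describe selection of clones for the activator and PTGR lines, and for the repressor line, made earlier, they do not say. Each screen used 1 reporter line, so it shows what happened in that line. In the activator screen the reporter was 7xTetO-pMYLPF-Puro-IRES-GFP, in the repressor screen pEF1-BFP-7xTetO-pPGK-Puro-IRES-GFP, both at an expression-stable locus on Chr15, and in both the tag was TetR, which binds TetO sites. In the screen for post-transcriptional regulators (PTGR) a Puro-IRES-GFP-10xBoxB reporter sat at a random place, and the λN tag bound boxB in the reporter mRNA. For the activator screen GFP-high cells were sorted and for the repressor screen GFP-low cells. PTGR cells were sorted repeatedly for low GFP, with expansion between sorts, and then for its return once the boxB sites had been removed. For that removal Cre was induced with hydroxytamoxifen before the last sort. The unsorted cells of the same lines were the control, and each of the 6 groups held 2 replicates. In the methods unsorted cells were taken after drug selection for the cassette, ahead of sorting. PTGR sorted cells thus differed from their control by the repeated sorts, the expansion and the hydroxytamoxifen treatment too, and the effect of these was not tested.

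Sorted libraries held 14705 to 60980 insertions within 200 kb of an assigned exon and unsorted libraries 54088 to 233799. The 6 unsorted libraries together, 1022126 insertions, are called the background. Each position was counted once per library. Libraries of the repressor screen shared positions: of all positions in repressor sorted replicate 2, 27.5% were also in replicate 1, and of those in replicate 1, 18.8% were also in replicate 2. At Jdp2, 37 positions were in both, of 114 in replicate 2 and 308 in replicate 1. In the other screens sorted replicates shared 0.648% to 2.61% of their positions. The study's methods give a transduction rate for each of 2 transductions a screen, and the source of the shared positions was not tested. Fisher's test covers the counting of insertions alone, while p-values from edgeR measure the spread between these libraries.

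Each insertion was assigned to the splice acceptor next downstream of it, and the acceptor sets which part of the protein is fused to the tag. Jdp2 (ENSMUSG00000034271) lies on the plus strand at chr12:85599027-85639878 of GRCm38 (mm10). It has 4 protein-coding transcripts of up to 4 exons. Exons and residues given here are those of 1 of them, chosen for its long coding sequence. Of the 3 splice acceptors that can receive the tag, those of exons 3 and 4 are shown, since the repressor sorted insertions were assigned to them, with 20 intronic bases in lower case and the first 10 exonic bases in capitals, on the plus strand:

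exon 3, chr12:85631625-85631654: gtggctctgtgccctcacagCTAGACGAGG
exon 4, chr12:85638753-85638782: gtgtgtctctgtctgtacagGAGTCAGAGC

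Both introns end with ag. Splicing into exon 2 adds the whole protein of 163 residues to the tag. Splicing into exon 3 adds residues from 68 on, 58.9% of the protein, and this exon holds the basic region, found by its standard signature at residues 77 to 92. Splicing into exon 4 adds residues from 103 on, 37.4% of the protein, without the basic-region signature. The coding sequence entered exon 3 and exon 4 between whole codons, so the same cassette frame serves both.

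The first comparison asked whether a member held a larger share of the insertion positions after sorting for reduced reporter expression. Jdp2 did. Repressor sorted replicates 1 and 2 held 308 and 114 Jdp2 insertions, against 125 and 120 in the unsorted cells of the same screen. Activator cells had 4 and 2 when sorted and 84 and 98 when unsorted, and PTGR cells 13 and 19 when sorted and 97 and 19 when unsorted. Since depth differed, the same numbers per 10000 insertions show the order better.

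Per 10000 insertions, Jdp2 had 138.3 and 75.0 in the repressor sorted replicates. It had 7.17 and 6.78 in the repressor unsorted, 4.79 and 4.72 in the activator unsorted, and 4.15 and 3.51 in the PTGR unsorted replicates. Below all of these lay the other sorted libraries, with 2.13 and 3.24 in the PTGR and 2.30 and 1.36 in the activator screen. Both repressor sorted libraries thus stood above the other 10, and both libraries of each other sorted group stood below the 6 unsorted ones.

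**Figure D1:**
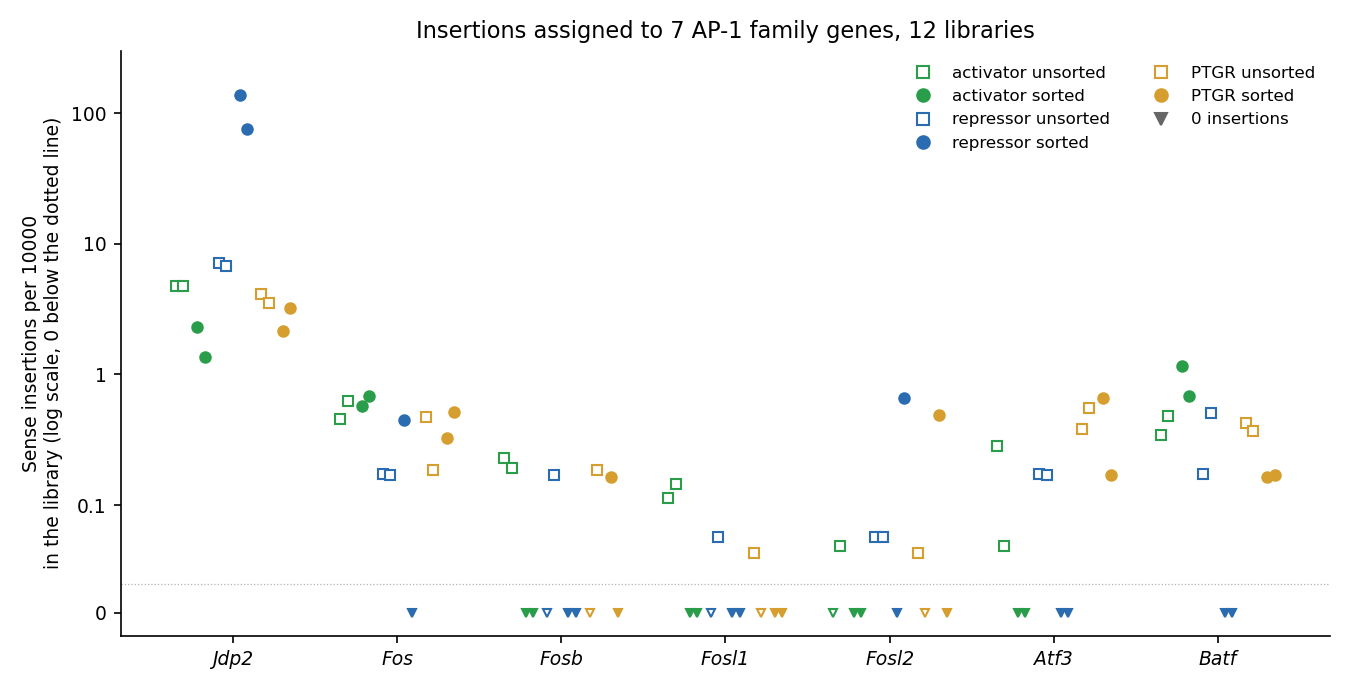
Sense insertions per 10000 insertions of the library (log scale) for the 7 members with a row in the tables, 1 point per library, sorted as filled circles and unsorted as open squares, with libraries at 0 as triangles under the dotted line. Jdp2 reaches 75.0 and 138.3 in the repressor sorted replicates, and every other value in the plot is 7.17 or less.

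Summed over replicates, 422 of the repressor sorted insertions were at Jdp2, 112.6 per 10000 or 1.13% of the total, where its share of the background would give 19.9. The log2 odds ratio against the background was 4.42 ± 0.094 (SE from counts, 95% interval 4.24 to 4.61). Jdp2 was called with Fisher's exact test, one-sided (adjusted p below 0.001 and log2 odds ratio of at least 1), as were 192 of the 2346 genes with at least 3 sorted insertions (8.18%). Its adjusted p was too small to be written as a number against the background, and was 8.46e-250 in Fisher's exact test with the 2 unsorted repressor libraries as the control, with a log2 odds ratio of 4.03. Among the 192 called genes Jdp2 was 12th by sorted insertions and 89th by log2 odds ratio. The cassette also reached it often without sorting, with 543 insertions in the background, rank 110 of 20409 genes, where the median gene had 15.

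**Figure D2:**
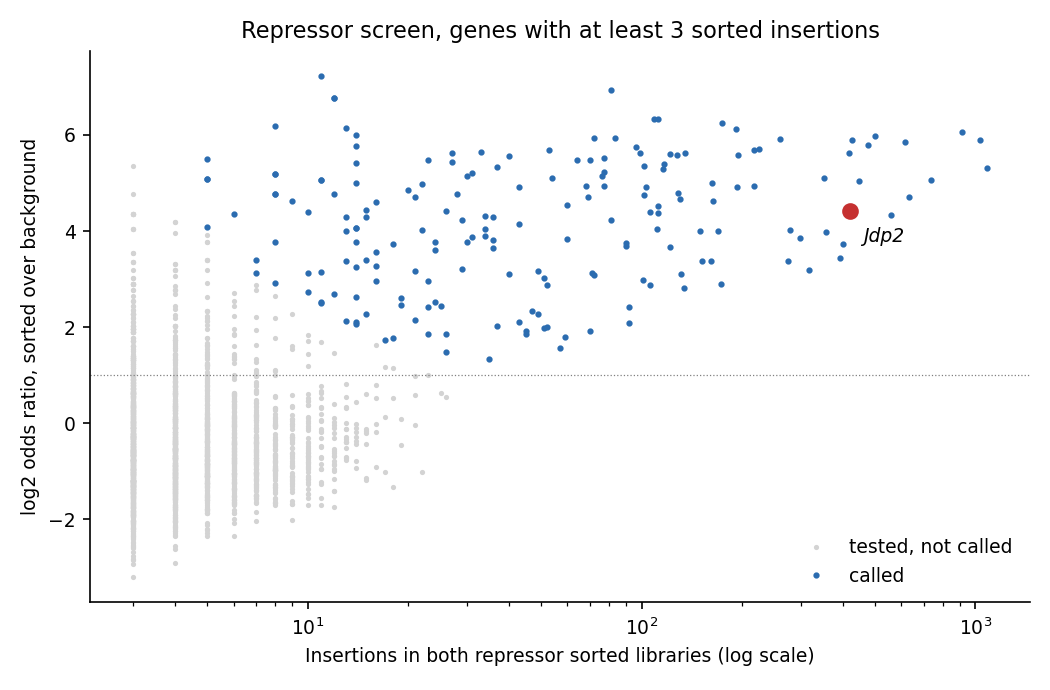
Insertions in both repressor sorted libraries (log scale) against the log2 odds ratio over the background for genes with at least 3 sorted insertions and at least 1 background insertion, called genes in blue and Jdp2 in red, with the threshold of 1 dotted. Jdp2 lies at 422 insertions and 4.42, among the called genes with the most insertions and near the middle of their log2 odds ratios.

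Between the replicates the size differed and the call did not. Replicate 1 alone gave a log2 odds ratio of 4.72 (adjusted p = 8.56e-279) and replicate 2 alone 3.83 (adjusted p = 1.48e-81, both one-sided Fisher's exact tests). With edgeR, which uses the spread between the 2 sorted and the 2 unsorted libraries of the screen, the log2 fold change was 4.78 (adjusted p = 1.78e-60), and 7.2% of 2779 genes tested were called higher at an adjusted p below 0.05 and a log2 fold change of at least 1. Without a filter on low counts, so over 16435 genes, edgeR gave 3.99 and an adjusted p of 0.0767, and 0.45% of genes were called.

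In the activator screen Jdp2 was not called. It had 6 sorted insertions where 17.1 would match the background, a log2 odds ratio of -1.51 ± 0.59 (SE from counts), with a two-sided Fisher's exact adjusted p of 0.0596. In the PTGR screen it had 32 where 63.5 would match, a log2 odds ratio of -0.99 ± 0.26. This lower share passed a two-sided Fisher's exact test against all 6 unsorted libraries (adjusted p = 0.00381, as did 0.548% of genes tested, at an adjusted p below 0.05) but not against the 2 of its own screen (-0.59, adjusted p = 0.522). In edgeR the log2 fold changes were -0.99 (adjusted p = 0.603) and -0.44 (adjusted p = 0.998), within the spread between replicates. Of the genes tested for more sorted insertions, Fisher's test called 4.64% (activator) and 0.666% (PTGR), and edgeR 4% and 2.24%.

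The difference between screens was itself tested with an interaction term in edgeR over all 12 libraries. The change on sorting was higher in the repressor than in the activator screen by 5.80 on the log2 scale (adjusted p = 2.34e-12, 5.18% of genes called higher) and higher than in the PTGR screen by 5.27 (adjusted p = 1.36e-14, 5.57% of genes called higher). Activator and repressor screens used the same TetR tag, and the direction of the sort and the reporter differed between them.

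If the fusion is what was sorted for, the cassette must lie in the direction of the gene, so insertions in the opposite orientation served as a control. In the repressor sorted replicates 2 and 1 insertions at Jdp2 were reversed, against 63 and 48 in the repressor unsorted replicates. The sense share of all Jdp2 insertions was 99.4% (95% Wilson interval 97.7 to 99.8) and 99.1% (95.2 to 99.8) in the repressor sorted replicates. Over the background it was 66.5% (63.2 to 69.7), and in the single unsorted libraries it ran from 50.0% in PTGR unsorted replicate 2 to 71.4% in repressor unsorted replicate 2.

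The other sorted libraries did not show this one-sidedness. In the activator sorted replicates 4 of 9 and 2 of 4 Jdp2 insertions were sense, and in the PTGR sorted replicates 13 of 23 and 19 of 39. Reversed insertions at Jdp2 had log2 odds ratios over the background of -1.48 (-3.12 to 0.16) in the repressor, -0.20 (-1.28 to 0.88) in the activator and -0.08 (-0.62 to 0.46) in the PTGR screen. No member was called for reversed insertions by Fisher's exact test, which called 3.14% of genes tested in the activator screen, 5.61% in the repressor and 0.5% in the PTGR screen. The test covered 1 member in the activator, 1 in the repressor and 3 in the PTGR screen, of which 0 had an unadjusted p below 0.05.

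**Figure D3:**
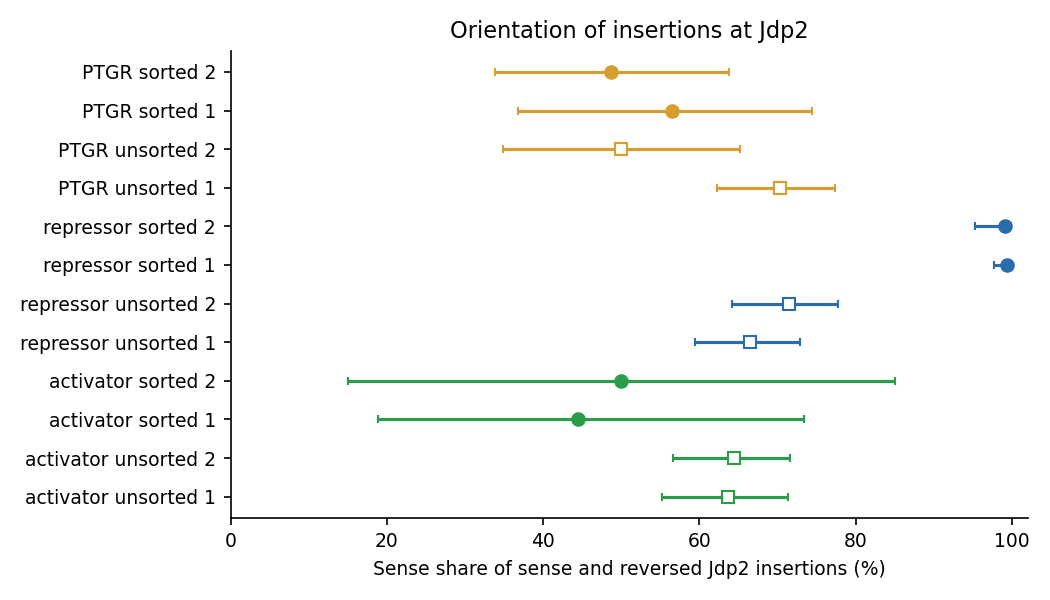
Sense insertions as a percentage of sense and reversed insertions at Jdp2 in each of the 12 libraries, with 95% Wilson intervals, sorted as filled circles and unsorted as open squares. The repressor sorted replicates are at 99.4% and 99.1%, and the other 10 libraries lie at or below 71.4%.

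The positions of the insertions give the acceptor nearest to each, and the spliced product itself was not measured. Most lay in intron 2, which runs over 23279 bp between exon 2 and exon 3, in sorted and unsorted libraries alike. All 422 insertions of the repressor sorted libraries lay inside introns 2 and 3, with 371 in intron 2 and 51 in intron 3. In the background 37 of 543 lay upstream of the gene, 2 in intron 1, 485 in intron 2 and 17 in intron 3. Per 10000 insertions and kb, intron 2 held 4.25 in the repressor sorted and 0.204 in the background libraries, and intron 3 held 1.94 and 0.0237.

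**Figure D4:**
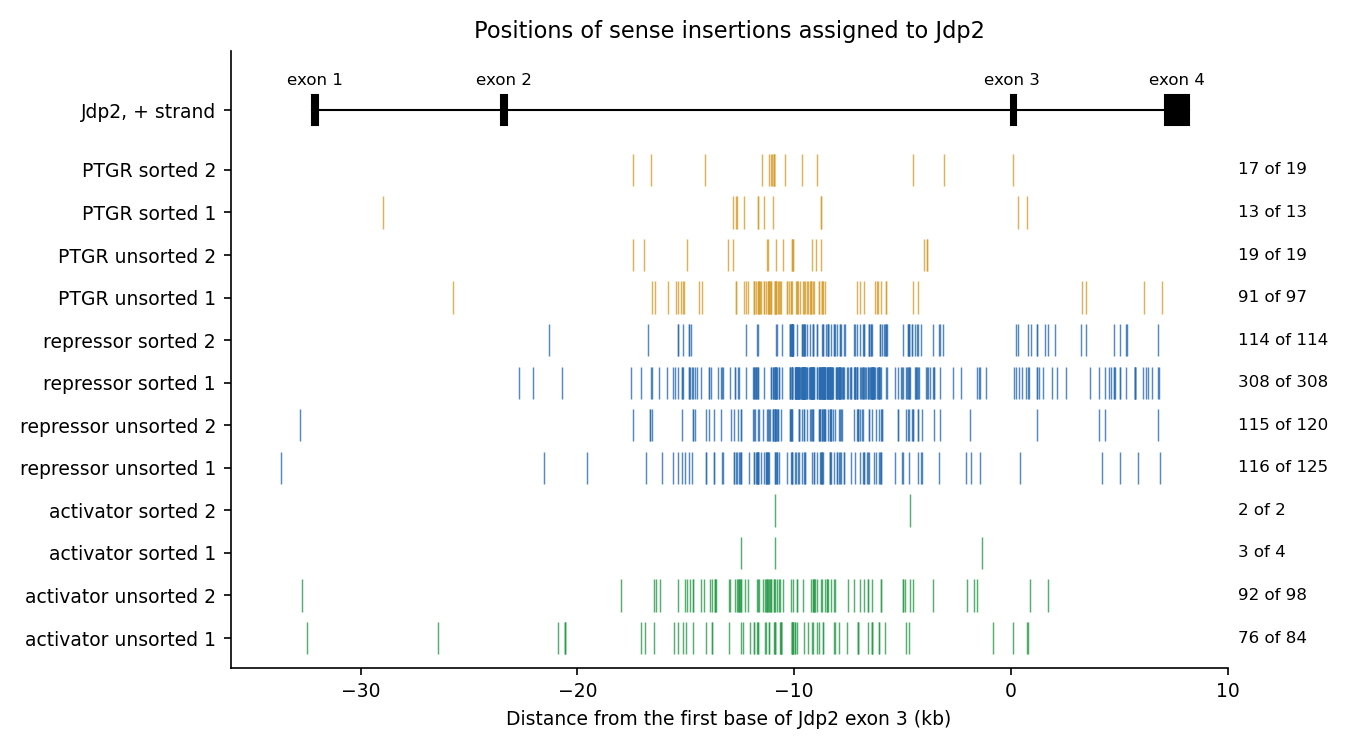
Each tick is a sense insertion assigned to Jdp2 in 1 library, at its distance in kb from the first base of exon 3, below the exons of the gene, with the number drawn of the number in that library at the right. In the repressor sorted replicates all 308 and 114 insertions are drawn and lie downstream of exon 2, with ticks between exons 3 and 4 denser than in the unsorted replicates.

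No repressor sorted insertion was assigned to exon 2, the acceptor that gives the whole protein. The counts were 0 of 308 and 0 of 114, which allow shares of up to 0.974% and 2.63%, whereas repressor unsorted replicates had 10 of 125 (8.00%) and 6 of 120 (5.00%). Over the background 40 of 543 were assigned to it (7.37%, 95% Wilson interval 5.46 to 9.88). At this share a sample of 422 insertions without any differed from the background (two-sided Fisher's exact test of exon 2 against exons 3 and 4, adjusted p = 1.91e-10 over 2 tests). The difference also passed for each replicate alone, with adjusted p of 3.47e-08 and 0.000769 by Fisher's exact test, and with the repressor unsorted libraries alone as the control (adjusted p = 1.60e-07). These tests compare exon 2 with exons 3 and 4, which rose, so they do not show a loss at exon 2. They count the 37 Jdp2 positions found in both sorted replicates in each, so the replicates are not independent. They were not repeated on distinct positions. Per 10000 insertions exon 2 had 0.391 in the background, and a repressor sorted count of 0 allowed up to 0.801. Its insertions also lay farther away, at a median of 68227 bp against 9541 bp for exon 3 over the 12 libraries.

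Exon 4, which leaves the basic-region signature out of the fusion, took a larger share after sorting. It received 35 of 308 (11.4%, 8.29 to 15.4) and 16 of 114 (14.0%, 8.83 to 21.6) insertions in the repressor sorted replicates. In the repressor unsorted replicates it received 5 of 125 (4.00%) and 4 of 120 (3.33%), and in the background 18 of 543 (3.31%, 2.11 to 5.18). The odds of exon 4 against exon 3 were 3.70 times those in the background (two-sided Fisher's exact test, adjusted p = 1.03e-06), 3.45 and 4.40 times in the replicates alone, and 3.36 times those in the repressor unsorted libraries (adjusted p = 0.000358). These exon tests were chosen after the shares had been seen, and those of exon 4 were likewise not repeated on distinct positions.

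**Figure D5:**
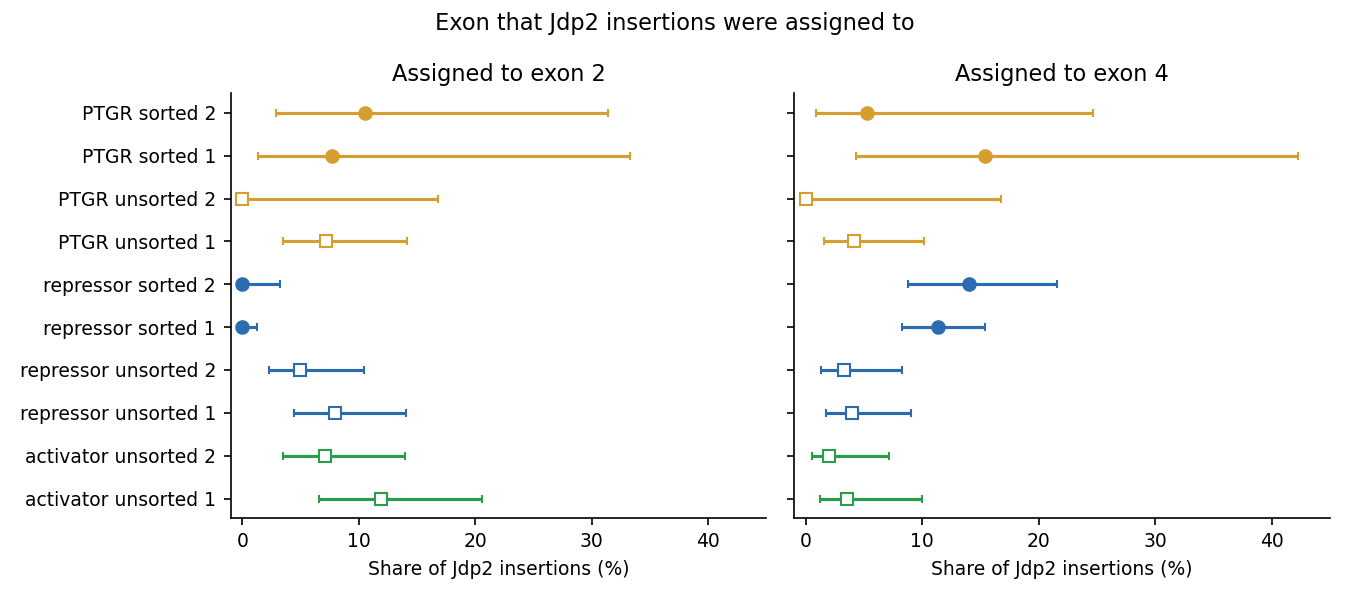
Percentage of Jdp2 insertions assigned to exon 2 (left) and exon 4 (right) in the 10 libraries with at least 13 Jdp2 insertions, with 95% Wilson intervals, sorted as filled circles and unsorted as open squares. The repressor sorted replicates are at 0% for exon 2 and at 11.4% and 14.0% for exon 4.

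Tested as features of their own among 2201 pairs of gene and exon in the repressor screen, of which 13.3% were called, both downstream acceptors were called. Exon 3 had 273 and 98 insertions in the sorted replicates and 485 in the background, a log2 odds ratio of 4.40 (4.20 to 4.59, Fisher's exact adjusted p = 1.82e-292). Exon 4 had 51 sorted against 18 in the background, a log2 odds ratio of 6.27 (5.50 to 7.05, Fisher's exact adjusted p = 2.59e-57). By replicate the log2 odds ratios were 4.71 and 3.77 for exon 3 and 6.48 and 5.90 for exon 4. The higher ratio at exon 4 was thus present in each replicate, though the replicates shared 37 Jdp2 positions, which were counted in both.

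Within intron 2 the median distance to exon 3 was 8799 and 8438 bp in the repressor sorted replicates, against 9932 and 9208 bp in the repressor unsorted replicates and 10127 bp in the background. In the PTGR sorted libraries together it was 11038 bp, against 10669 bp unsorted. These distances are given as a description, with no test. The upper quartile was 10077 bp over both repressor sorted libraries and 11781 bp in the background. As a description of where the cassette lands, a window of 5 kb that begins 12828 bp before exon 3 held 55.2% of the background insertions of Jdp2 and 49.5% of the repressor sorted ones.

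The same position can be found in several libraries, so the count was also taken over distinct sites. The 12 libraries held 780 distinct Jdp2 positions, of which 614 were in 1 library, 166 in at least 2 and 76 in libraries of at least 2 screens. Of the 385 distinct positions in the repressor sorted libraries, 73 (19.0%) were also in a repressor unsorted library and 41 (10.6%) in a library of another screen. A further 283 were found in repressor sorted libraries only, in 1 replicate or in both. The log2 odds ratio was close to the value above when repeated sites were treated otherwise. It was 4.46 with positions of both sorted replicates counted once (385 insertions), 4.28 with positions within 10 bp counted once (300 insertions) and 4.67 without positions found in another screen (373 insertions).

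Positions shared with sorted cells also touched the control. The repressor unsorted replicates had the highest Jdp2 levels of the 6 unsorted libraries, 7.17 and 6.78 per 10000, and 36 of 125 and 42 of 120 of their Jdp2 positions were also in a repressor sorted library. With all positions found in repressor sorted libraries left out, the unsorted levels were 5.18 and 4.48 in the repressor, 4.29 and 4.15 in the activator and 3.35 and 2.78 in the PTGR screen. The repressor unsorted replicates were still the highest, with a gap to the activator screen that was smaller. This filter removed 36 and 42 Jdp2 positions from them and 9 and 12 from the activator unsorted replicates, so a larger drop there was built into it. The part that cell sharing between libraries had in the repressor unsorted levels was not tested.

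The 4 Fos genes were reached by the cassette far less often than Jdp2. Fos, the founding partner of Jun, had 39 background insertions, 1 and 1 in the activator sorted, 1 and 0 in the repressor sorted and 2 and 3 in the PTGR sorted replicates. Fosb, a Fos paralog, had 12 in the background and 1 in the sorted libraries, in PTGR replicate 1. Fosl1, which encodes Fra-1, had 7 in the background and 0 in all 6 sorted libraries. Fosl2, which encodes Fra-2, had 4 in the background, 1 in repressor sorted replicate 2, and 3 and 0 in the PTGR sorted replicates. No Fos gene was called in a screen.

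Atf3, a stress-induced factor that can repress as a homodimer, had 24 background insertions, 0 in the activator and repressor sorted libraries, and 4 and 1 in the PTGR sorted replicates. Batf, a factor of lymphocytes that lacks an activation domain of its own, had 40 background insertions, 2 and 1 in the activator sorted, 0 and 0 in the repressor sorted and 1 and 1 in the PTGR sorted replicates. Neither was called. In each sorted group the counts of these 6 genes were at most 5.

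A filter of at least 3 sorted insertions decided which members were tested at all. Jdp2 was the only one tested in the repressor screen, Jdp2 and Batf were tested in the activator screen, and Jdp2, Fos, Fosl2 and Atf3 in the PTGR screen. Batf had a log2 odds ratio of 1.26 in the activator screen (-0.44 to 2.95, adjusted p = 0.942 in Fisher's exact test). In the PTGR screen the value was 0.13 for Fos (-1.21 to 1.48), 0.83 for Atf3 (-0.56 to 2.22) and 2.68 for Fosl2 (0.52 to 4.84). The Fosl2 value rests on 3 insertions of 1 replicate, with an unadjusted p of 0.0291 and an adjusted p of 0.381 by Fisher's exact test.

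For these 6 genes depth limited what could be seen. To be called in the repressor screen, a gene with their background counts would have needed 9 sorted insertions for Fos or Batf, 8 for Atf3, 6 for Fosb and 5 for Fosl1 or Fosl2. In the PTGR screen, where depth was larger and the sorted share had to rise over more insertions, the numbers were 8 for Fosl2 to 19 for Fos and Batf. A repressor sorted count of 0 allowed up to 0.801 insertions per 10000, above the background levels of the 4 genes at 0, which were 0.391 for Batf, 0.235 for Atf3, 0.117 for Fosb and 0.0685 for Fosl1. A change smaller than these limits was not detectable at this depth.

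The acceptors in reach also differed between Jdp2 and the Fos genes. All insertions of Fos, Fosb, Fosl1 and Fosl2 (47, 13, 7 and 8 over the 12 libraries) were assigned to exon 2, which leaves 87.2% to 89.6% of the protein in the fusion, the basic region included. For Atf3, 28 of 29 were assigned to exon 2, which gives the whole protein. Batf had 37 at exon 2, which keeps 83.2% and its basic region, and 8 at exon 3. In each of the 7 genes the basic-region signature lay in 1 coding exon of 105 to 108 bases that began between codons. Insertions assigned to that exon or a later one made up 959 of 1003 for Jdp2 and 45 of 45 for Batf, against 1 of 29 for Atf3 and 0 for the 4 Fos genes. Assigned to an exon after it, so that the basic region is left out, were 72 insertions of Jdp2, 8 of Batf and 0 of the other 5 genes.

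Jdp2 lies between Fos and Batf on chromosome 12, all 3 on the plus strand, and an insertion is assigned to the nearest acceptor downstream. From the start of Fos to the end of Batf, plus-strand insertions were assigned to Jdp2 (1003 over 12 libraries) or Batf (45), and minus-strand ones to Tmed10, a cargo receptor of the early secretory pathway. The repressor sorted libraries held 422, 0 and 0 of these. The rise in repressor sorted cells in this interval was thus seen at Jdp2, while no repressor sorted insertion in it was assigned to Batf or Tmed10. Insertions of Fos lay outside the interval, with 1 in repressor sorted replicate 1. Background counts within the interval were 40 for Batf and 25 for Tmed10, or 0.391 and 0.245 per 10000. A repressor sorted count of 0 allowed up to 0.801 per 10000, so a small rise or a fall at these genes could not be seen.

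Other basic leucine zipper (bZIP) genes gave the wider context. A list of 42 relatives outside the 10 members held 37 with a row in the tables. In the repressor screen 8 were tested and 1 was called, beside 8.18% of all genes tested. This was Atf1, a cAMP-responsive factor of the Creb family. Atf1 had 120 and 73 insertions in the repressor sorted and 43 and 37 in the repressor unsorted replicates, with a log2 odds ratio of 4.93 ± 0.15 (adjusted p = 6.19e-173 in Fisher's exact test).

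Crem, a Creb relative with repressor isoforms, had 6 and 2 sorted insertions against 16 and 15 unsorted ones. It was called by edgeR with a log2 fold change of 2.07 (adjusted p = 0.0412) but not by Fisher's exact test (1.11, adjusted p = 0.288), and the edgeR call was lost with a replicate block (adjusted p = 0.224).

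In the activator screen 12 relatives were tested and 5 were called, Nfe2l2, Nfe2l1, Ddit3, Batf2 and Tef, beside 4.64% of all genes tested. Genes enter this count only with at least 3 sorted insertions, so it says nothing of the relatives that were not tested. Nfe2l2, the regulator of antioxidant genes, had 53 and 77 insertions in the activator sorted and 44 and 67 in the unsorted replicates, with a log2 odds ratio of 3.95 ± 0.15. Its paralog Nfe2l1, which controls proteasome genes, had 10 and 12 sorted against 17 and 33 unsorted (2.77 ± 0.34). Ddit3, the stress factor CHOP, had 15 and 33 sorted against 2 and 10 unsorted (6.12 ± 0.37).

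Batf2 had 9 and 23 sorted against 10 and 15 unsorted insertions (4.09 ± 0.32). Tef, of the PAR family of bZIP factors, was called on 2 insertions in each sorted replicate, with 3 in the background, and was not called with the activator unsorted libraries alone as the control. The other 4 were also called by edgeR. Batf2 is a paralog of Batf, which had 3 activator sorted insertions and was not called, and the difference between them was not tested.

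In the PTGR screen 22 relatives were tested and 0 were called, beside 0.666% of all genes tested, and 0 of the 22 had an unadjusted p below 0.05 by Fisher's exact test.

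Of 7 genes that regulate AP-1, chosen as kinases of the Jun pathway and cofactors of Jun or Jdp2, 1 was tested in the activator screen and none in the other screens. This was Mapk8, which encodes the Jun kinase JNK1, with 3 and 0 insertions in the sorted replicates and 4 in the background. It was not called (adjusted p = 0.0172 in Fisher's exact test). Hdac3, which encodes a deacetylase that Jdp2 can recruit, and the other 5 genes had fewer than 3 sorted insertions in each screen.

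Ranked by Pearson correlation across the 12 libraries, over log2 of insertions per 10000 plus 0.1, the genes most like Jdp2 among 9732 were Sp3 (r = 0.985), Rnf220 (0.985), Ipo7 (0.982), Ncor1 (0.979) and Rbpj (0.978). All were frequent in the repressor sorted libraries, with 598 and 435 insertions for Sp3, 284 and 117 for Rnf220, 476 and 433 for Ipo7, 256 and 136 for Ncor1, and 212 and 86 for Rbpj. The libraries are shared by all genes and the correlation follows the repressor sorted pair, so it is given as a description.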

How the data were processed

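Per the study's methods, the authors cut adapters with Trim Galore (0.6.0), mapped first mates to mm10 with Bowtie2 and filtered duplicates and poorly mapped reads with SAMtools (1.9). Every insertion was then given to the closest exon downstream of it in a protein-coding GENCODE transcript, first exons left out. They deposited 24 insertion lists and 3 tables of insertion counts per gene, with odds ratios and p-values of their own that were not used. The deposited lists give each insertion's position and distance in bp, without read numbers.

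Here insertions were counted per gene and library as unique positions within 200 kb of that exon. Repeated lines, which covered 100% of positions in the repressor unsorted libraries and 12.7% in PTGR sorted replicate 2, counted once. The sum of both sorted libraries of a screen was set against all 6 unsorted libraries with Fisher's exact test (one-sided, scipy 1.17.1), adjusted by Benjamini-Hochberg over genes with at least 3 sorted insertions. This summed test does not use the spread between replicates, which edgeR (4.0.16, quasi-likelihood test, TMM) does; DESeq2 (1.42.0) was an alternative. The exon-level tests were added after the data had been seen. Exons are those of GENCODE on GRCm38; the assigned exon start matched for all 1152 member insertions. Intervals of percentages are 95% Wilson intervals, and those of log2 odds ratios are 95% normal intervals from the SE. A count of 0 was taken to allow 3 counts. All of these, like SEs, cover counting error only. Samples were grouped by the labels. Fisher's test and edgeR were tried on simulated counts. These held no spread between replicates beyond counting error and no shared positions, so they could not check either.

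The members and the gene lists were chosen with earlier results of these data known. Genes named are the members, listed relatives or regulators called in a screen, genes assigned insertions between Fos and Batf, and the 5 genes most correlated with Jdp2; Mapk8 and Hdac3 were named after their values were seen. Alternatives covered the background, distance limit, repeated, nearby and shared positions, minimum counts, thresholds, sidedness, tool, normalization, replicate block and leaving out each library.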

Additional observations from a re-analysis of the deposited data

Results flagged for a closer look

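The response of Jdp2 to sorting differed between screens by a test of the difference itself. By edgeR's interaction test over the 12 libraries it was higher in the repressor than in the activator screen by 5.80 and higher than in the PTGR screen by 5.27, on the log2 scale.

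Atf3 and Fosl1 each had 1 unsorted library that stood apart from the other 5 in reversed insertions per 10000. The value was 0.558 for Atf3 in PTGR unsorted replicate 2, and 0.186 for Fosl1 in the same library. These rest on 3 insertions and 1 insertion in the library with the fewest insertions of the 6. Chance flags about 1 in 20 groups, and 2 of the 14 groups examined were of this kind.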

How the results depend on the processing

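Of 196 alternative values computed for 20 results, 195 kept their direction and their side of the threshold or, for counts of genes called, stayed within 1.5 times the reported count. The exception was the edgeR log2 fold change of Jdp2 in the repressor screen without a filter on low counts, 3.99 with an adjusted p of 0.0767. A negative log2 odds ratio cannot be called. Those of Jdp2 in the activator and PTGR screens could therefore fail only by a change of direction. Settings of the minimum count leave an odds ratio unchanged, so for it they were no check. The log2 odds ratio of Jdp2 ran from 3.83 to 4.72 over 18 alternatives in the repressor screen, from -1.97 to -1.21 in the activator and from -1.32 to -0.59 in the PTGR screen. Leaving out 1 library in turn gave edgeR log2 fold changes from 3.06 to 5.02 in the repressor screen, and differences between screens from 5.02 to 6.35 (against activator) and from 4.36 to 5.68 (against PTGR). Without either activator unsorted library Jdp2 did not pass edgeR's filter and has no value. Of the bZIP relatives, 4 in place of 5 were called in the activator screen with its own unsorted libraries as the control.

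The labels do not say that replicate numbers pair the libraries. Deviations of same-numbered libraries correlated by 0.0328, 0.00564 and 0.186 in the activator, repressor and PTGR screens. Sorted replicates 1 and 2 shared 5.17% and 19.2% of positions with the unsorted library of their number and 2.35% and 1.39% with the other one in the activator screen. In the PTGR screen these were 19.5% and 6.98% against 0.397% and 1.93%, and in the repressor screen 8.50% and 8.72% against 10.0% and 5.47%. With a replicate block in edgeR the repressor value was 4.69 (adjusted p = 1.32e-47), the differences were 5.72 and 5.21, and no call on Jdp2 changed.

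The precision is limited by 2 libraries a group, by 1 reporter line a screen and by the positions that the repressor replicates share. Members with few background insertions needed several-fold enrichment to be called. Insertions are assigned by distance and the spliced product was not measured, so the exon given is the nearest acceptor and the frame of each fusion is unknown.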
